A study of Mus musculus with 4 samples.

Results

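The lysosome of the mouse thyroid was described through 34 genes for lysosomal enzymes, lysosomal membrane proteins and the transcription factors that regulate them, out of 16218 genes in the count table. The genes were taken by symbol from a list set with earlier results of these data known, and all 34 were found. They fall into 3 transcription factors (Tfeb, Tfe3, Mitf), 7 cathepsins, 12 other hydrolases, 2 soluble cofactors of lipid breakdown (Npc2, Psap), 5 subunits of the proton pump and 5 membrane proteins. Thyroids came from NOD.H-2h4 mice, which are prone to autoimmune inflammation of the thyroid and here received injections 3 times a week for 2 weeks. One group of 2 mice received an antibody against PD-L1, which restrains T cells through their receptor PD-1, and the other group of 2 mice received isotype control IgG. Each library is titled as the thyroid of a mouse and carries a replicate number; age, sex and any allele of the mice are not given in the labels, and the labels' genotype field only repeats the treatment. The labels' batch field holds a different antibody clone name in each of the 4 libraries, so batch and treatment cannot be told apart.

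Lysosomes are acidic compartments in which proteins, lipids, glycans and glycogen are broken down. Most of their soluble enzymes are made in the endoplasmic reticulum, tagged with mannose 6-phosphate and sorted to the lysosome, where a vacuolar-type ATPase pumps in protons. TFEB, TFE3 and MITF bind E-box sites in the promoters of many lysosomal genes, and their activity is controlled mainly by phosphorylation and movement between cytoplasm and nucleus rather than by the level of their mRNA. In the thyroid, follicular cells take up thyroglobulin from the colloid and cut it with lysosomal cathepsins to free thyroid hormone, and macrophages are also rich in lysosomes.

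The libraries held 75591923 to 79663374.5 counts, and 3 counts corresponded to 0.0370 to 0.0408 CPM, the usual unit of counts relative to library size, here scaled by TMM factors. The lowest count of any of the 34 genes in any library was 609, so all of them lay far above that floor. Anti-PD-L1 replicate 1 stood apart from the other 3 libraries. In it Tg, which encodes thyroglobulin, took 4.34% of all counts against 14.6% to 16.9% elsewhere, Xist had 103 counts against 5488 to 5813, and the Y-linked gene Ddx3y had 4597 counts against 28 to 64. These 3 genes were looked at after earlier results were known, and 3 of the 34 lysosomal genes (Tfe3, Gla and Lamp2) lie on the X chromosome. Low Xist with high Ddx3y is the pattern of a male mouse, and the other 3 libraries had the female pattern. The anti-PD-L1 libraries thus differed in this pattern while the IgG libraries did not, and its part in the values was not tested. Of 11 follicular cell markers, all were lower in anti-PD-L1 replicate 1 than in replicate 2, and all were lower in IgG replicate 2 than in replicate 1. Markers of neighbouring tissue also differed by library. Summed CPM of 6 skeletal muscle markers was 27676 and 37495 under IgG and 46006 and 16669 under anti-PD-L1. That of 7 squamous epithelium markers was 11011 and 2927 against 4549 and 65.4. Cartilage markers differed by group, with summed CPM of 203 and 244 against 93.1 and 143. Both anti-PD-L1 values lay below both IgG values in 6 of 7 cartilage markers (85.7%), against 13.1% of all genes. In the other 1 the groups overlapped. The part of neighbouring tissue in the values was not tested.

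Soluble enzymes and cofactors of the lysosomal lumen had mostly higher values after PD-L1 blockade, while the proton pump, the membrane proteins and the transcription factors had class medians near 0. Setting the lumen apart in this way was done after the values were seen, and the further lists below repeat it only in part. Acid lipase (Lipa) was about 1.97-fold higher, and the lipid-binding protein Npc2, the alpha-mannosidase Man2b1 and the beta-glucuronidase Gusb were 1.57-fold to 1.66-fold higher. No single gene passed the main test, that of edgeR, while DESeq2 called Lipa and Npc2. Across the 34 genes the median log2 fold change (anti-PD-L1 minus IgG) was 0.14, against 9.1e-05 over all 16217 genes tested, and 29 of 34 were above 0. The anti-PD-L1 values both lay above the IgG values in 15 of the 34 genes (44.1%), against 16.5% of all genes, and both lay below in 0 of 34, against 13.1% of all genes. In the other 19 genes the groups overlapped.

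With the edgeR quasi-likelihood test, Benjamini-Hochberg adjusted over all genes, the calls were 0 of the 34 genes and 0.0% of all genes at an adjusted p under 0.05. The lowest adjusted p among the 34 was 0.243, and the lowest over all genes was 0.0637. At an unadjusted p under 0.05 edgeR counted 5 of the 34 higher (Lipa, Man2b1, Gusb, Ctsh and Npc2), against 4.96% of all genes, and 0 lower, against 1.1% of all genes. DESeq2 called 2 higher (Lipa and Npc2), against 2.93% of all genes, and 0 lower, against 0.327%, and limma voom called 0. The size of the count depended on single libraries. With 1 library left out, both the higher and the lower count grow for all genes, to between 24.8% and 39.2%. Without anti-PD-L1 replicate 1, 27 of the 34 genes (79.4%) were higher with no overlap and 3 (8.82%) lower, against 39.2% and 38.8% of all genes. Without anti-PD-L1 replicate 2, 17 (50%) were higher and 13 (38.2%) lower, against 38.1% and 38.8% of all genes. The median log2 fold change was then 0.055. Without IgG replicate 1 the counts were 19 and 1, against 24.8% and 26.6% of all genes. Without IgG replicate 2 they were 15 and 5, against 26.5% and 26.7%. An exact permutation test of 2 against 2 libraries cannot go below p = 0.333.

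**Figure D1:**
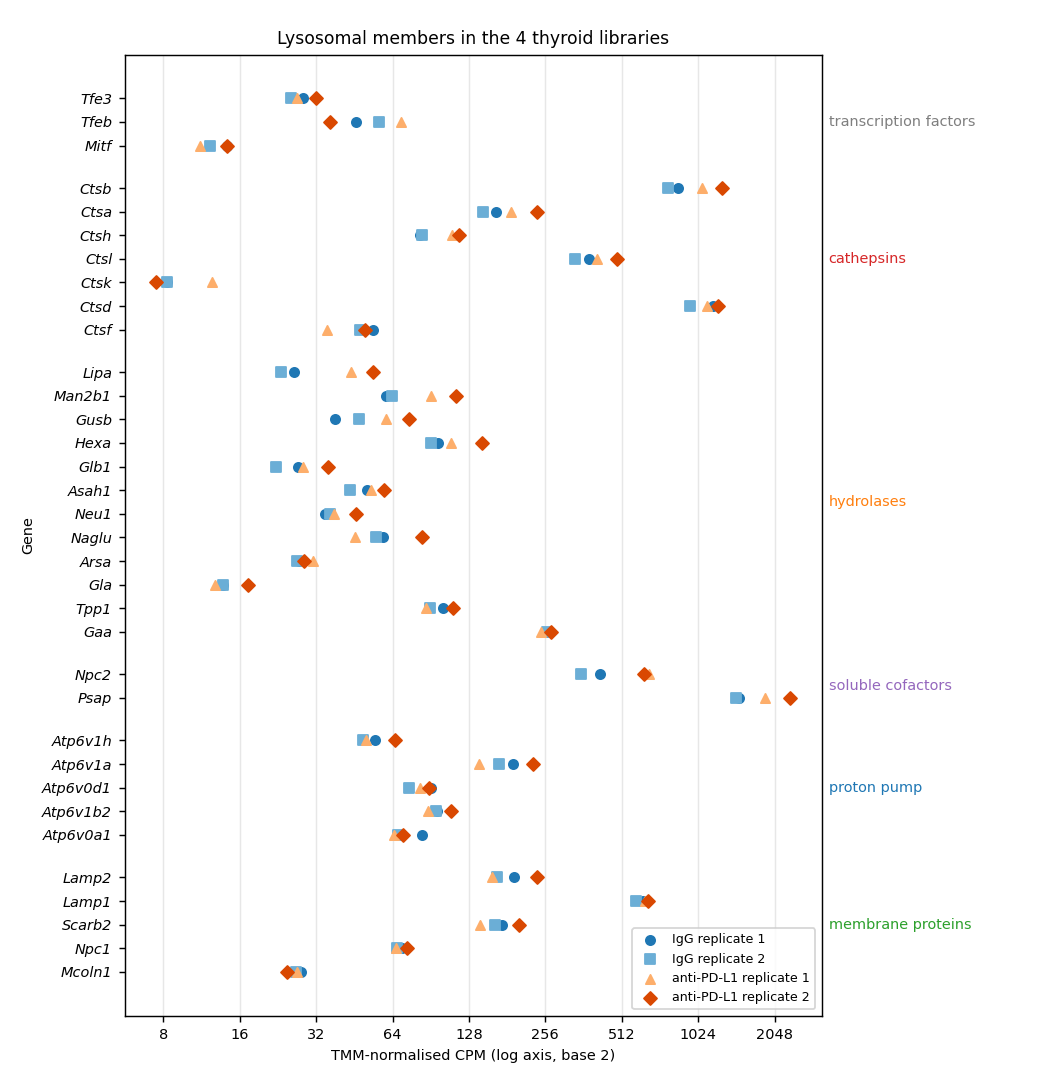
TMM-normalised CPM (horizontal log axis) of each of the 34 lysosomal genes (vertical axis, grouped by class), with 1 point per library. Both anti-PD-L1 points lie right of both IgG points in 15 genes (44.1%, against 16.5% of all genes), 14 of them cathepsins, hydrolases and cofactors. The points of the pump subunits and transcription factors overlap.

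The 3 transcription factors did not differ in a common direction. Here and for the genes that follow, values stand in the order replicate 1, replicate 2 of each group, and a value in parentheses with ± is the log2 fold change with its standard error (n = 2 per group). Tfeb (chr17:47737030-47792419, GRCm38), the main regulator of lysosomal gene expression, had 46.0 and 56.8 CPM in IgG replicates 1 and 2 and 69.2 and 36.4 CPM in anti-PD-L1 replicates 1 and 2. The highest and the lowest Tfeb values were thus both in the anti-PD-L1 group, and the log2 fold change was 0.04 ± 0.35 (SE, n = 2 per group; edgeR adjusted p = 1.00). Without anti-PD-L1 replicate 1 it was −0.50, and without anti-PD-L1 replicate 2 it was 0.42. Tfe3, a close relative of Tfeb, had 28.5 and 25.6 CPM under IgG and 26.9 and 32.1 CPM under anti-PD-L1. Mitf, known best for its role in pigment cells and osteoclasts, had 14.3 and 12.2 CPM against 11.1 and 14.2 CPM. Their log2 fold changes were 0.13 ± 0.17 and −0.06 ± 0.21, both smaller than their standard errors.

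Promoter sequences show which of these genes carry the letters that TFEB and its relatives are known to bind. The RefSeq table (GRCm38.p6) gives the 250 bases before and 50 bases after each start, and it held promoters of 28 of the 34 genes (35 promoters). It was searched on both strands for TCACGTG (reverse complement CACGTGA), which contains the shorter palindrome CACGTG. The longer motif was in at least 1 promoter of 11 of the 28 genes (39.3%), namely Arsa, Atp6v0d1, Atp6v1a, Ctsa, Ctsd, Gaa, Gla, Glb1, Lamp1, Mcoln1 and Naglu. It was in 3.77% of the 32851 promoters of the table, in 4.29% of its genes and in 6.36% of the tested genes with a promoter. Counted by promoter, it was in 31.4% of the 35. The shorter motif was in 13 of the 28 genes (46.4%), Ctsf and Ctsl being added. It was in 7.15% of all promoters, in 8.09% of all genes and in 10.9% of the tested genes with a promoter. By class the longer motif was in 2 of 5 cathepsins, 5 of 11 hydrolases, 2 of 3 pump subunits and 2 of 4 membrane proteins, and in 0 of 3 transcription factors and 0 of 2 cofactors.

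The following 120-base stretches upstream of the RefSeq start, each ending before any base that GENCODE annotates as untranslated, are given for 5 genes with the motif and for 3 of the 4 genes with the largest fold changes, which had no match anywhere in the window searched. Capitals mark each match of the 7-letter motif on either strand. Lamp1 is at chr8:13159041-13159160 (plus strand), Mcoln1 at chr8:3500337-3500456 (plus), Gaa at chr11:119267767-119267886 (plus), Glb1 at chr9:114400956-114401075 (plus), Arsa at chr15:89477426-89477545 (minus), Lipa at chr19:34527475-34527594 (minus), Man2b1 at chr8:85083149-85083268 (plus) and Gusb at chr5:130003050-130003169 (minus).
Lamp1: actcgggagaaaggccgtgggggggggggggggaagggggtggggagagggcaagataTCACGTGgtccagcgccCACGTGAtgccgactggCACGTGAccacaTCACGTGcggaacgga
Mcoln1: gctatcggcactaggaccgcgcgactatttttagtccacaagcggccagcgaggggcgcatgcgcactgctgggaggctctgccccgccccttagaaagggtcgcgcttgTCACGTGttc
Gaa: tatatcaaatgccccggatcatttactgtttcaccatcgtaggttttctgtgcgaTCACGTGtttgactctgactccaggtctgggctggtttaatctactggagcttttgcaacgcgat
Glb1: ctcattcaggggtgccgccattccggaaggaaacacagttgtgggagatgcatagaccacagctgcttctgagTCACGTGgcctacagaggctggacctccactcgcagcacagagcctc
Arsa: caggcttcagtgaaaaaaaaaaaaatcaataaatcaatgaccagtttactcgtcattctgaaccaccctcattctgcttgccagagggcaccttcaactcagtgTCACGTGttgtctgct
Lipa: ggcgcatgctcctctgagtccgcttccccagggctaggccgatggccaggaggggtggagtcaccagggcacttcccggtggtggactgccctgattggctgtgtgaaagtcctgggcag
Man2b1: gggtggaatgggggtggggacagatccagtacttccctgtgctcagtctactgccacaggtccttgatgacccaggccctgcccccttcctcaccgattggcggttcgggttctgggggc
Gusb: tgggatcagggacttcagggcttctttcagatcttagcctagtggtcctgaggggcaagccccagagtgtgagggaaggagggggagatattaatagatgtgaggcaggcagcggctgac
Lamp1 holds 4 matches within 120 bases, and Mcoln1, Gaa, Glb1 and Arsa hold 1 each in the stretch shown. The Mcoln1 stretch ends 63 bases and the Gaa stretch 77 bases before the RefSeq start, and Mcoln1 has a further site, 46 bases before its start, that lies outside the stretch and reads as the motif on both strands. A match is a description of letters and no evidence of binding, and the absence of a match says only that these letters are not in this window.

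The 4 genes with the largest fold changes (Lipa, Npc2, Man2b1 and Gusb) all had a promoter in the table and no match. The 11 genes with a match had a median log2 fold change of 0.13 (range −0.08 to 0.46), and 4 of them (Ctsa, Glb1, Arsa and Lamp1) had anti-PD-L1 values both above the IgG values. The 17 genes without a match had a median of 0.24 (range −0.24 to 0.98), with 8 such genes. Both sets lay above the 16.5% of all genes that had anti-PD-L1 values both above the IgG values. Within the 18 enzymes and cofactors that had a promoter in the table, the medians were 0.14 for 7 genes with the motif and 0.43 for 11 without it. These are descriptions of a list chosen with results known and were not tested, and the ranges overlap.

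**Figure D2:**
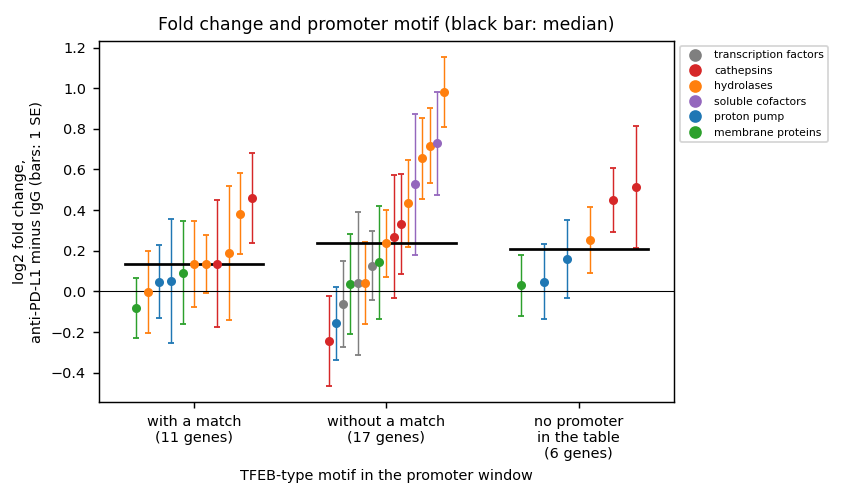
Log2 fold change (anti-PD-L1 minus IgG) of each lysosomal gene, set apart by whether its RefSeq promoter holds TCACGTG on either strand, holds none, or is not in the table; each point is a gene coloured by class with a bar of 1 standard error, and each black bar is a group median. The medians are 0.13 for 11 genes with the motif, 0.24 for 17 without it and 0.21 for the other 6, and the groups overlap.

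Cathepsins are the main proteases of the lysosome. Their median log2 fold change was 0.33. In 4 of the 7 (57.1%), Ctsa, Ctsb, Ctsh and Ctsl, both anti-PD-L1 values were above both IgG values, against 16.5% of all genes. Ctsh, an aminopeptidase of the papain family (chr9:90054152-90076089), had 82.2 and 83.6 CPM under IgG and 109.8 and 117 CPM under anti-PD-L1. Its replicates lay close together in both groups, and its log2 fold change was 0.45 ± 0.16 (edgeR adjusted p = 0.735, unadjusted p = 0.0405). Ctsb, an abundant cysteine protease that takes part in thyroglobulin cleavage (chr14:63122462-63145923), had 850.1 and 778 CPM against 1057 and 1269.7 CPM (0.51 ± 0.30). Ctsl, another cysteine protease known to cut thyroglobulin, had 380.2 and 336 CPM against 410.3 and 491 CPM (0.33 ± 0.25). Ctsa, the protective protein that stabilises beta-galactosidase and neuraminidase, had 164 and 145 CPM against 188 and 237 CPM (0.46 ± 0.22). In Ctsa, Ctsb and Ctsl anti-PD-L1 replicate 2 was the highest library and IgG replicate 2 the lowest.

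The remaining 3 cathepsins overlapped between groups. Ctsd, the main aspartic protease and another thyroglobulin-cleaving enzyme, had 1169.5 and 949 CPM under IgG and 1105 and 1223 CPM under anti-PD-L1 (0.14 ± 0.31). Ctsf, a cysteine protease, was lowest in anti-PD-L1 replicate 1, with 53.5 and 47.5 CPM against 35.4 and 49.8 CPM (−0.24 ± 0.22). Ctsk, the collagen-degrading protease of osteoclasts that is also made in other cells, was highest in anti-PD-L1 replicate 1, with 8.30 and 8.29 CPM against 12.5 and 7.52 CPM (0.27 ± 0.30). Exons of Ctsa overlap those of Neurl2 and Pltp, and exons of Ctsb overlap those of Fdft1. The strand setting of the counting is not given in the sources used here, so reads of such neighbours cannot be told apart.

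Among the 12 other hydrolases 8 (66.7%) had groups that did not overlap, all of them higher after anti-PD-L1, against 16.5% of all genes. The class median was 0.24. Lipa (chr19:34492318-34527474) encodes lysosomal acid lipase, which splits cholesteryl esters and triglycerides. It had 26.1 and 23.3 CPM under IgG and 43.9 and 53.4 CPM under anti-PD-L1. The gap between the groups was wider than the gap within either. The log2 fold change was 0.98 ± 0.17 (edgeR adjusted p = 0.243; DESeq2 adjusted p = 0.00302), and it stayed between 0.82 and 1.11 when single libraries were left out.

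Man2b1 (chr8:85083270-85098282), the acid alpha-mannosidase that trims glycans, had 60.5 and 63.8 CPM under IgG and 90.9 and 113 CPM under anti-PD-L1. The log2 fold change of Man2b1 was 0.72 ± 0.18 (edgeR adjusted p = 0.468; DESeq2 adjusted p = 0.0853), with values of 0.54 to 0.87 when single libraries were left out. The separation of the groups was larger than the gap within either. Gusb (chr5:129989011-130003049), which removes glucuronic acid from glycosaminoglycans, had 38.0 and 47.4 CPM against 60.2 and 74.1 CPM. Its log2 fold change was 0.65 ± 0.20 (edgeR adjusted p = 0.607; DESeq2 adjusted p = 0.315), and the gap between the groups was narrower than that between the 2 anti-PD-L1 libraries.

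The other 5 hydrolases without overlap had smaller differences. Hexa, a subunit of beta-hexosaminidase that degrades gangliosides, had 96.9 and 90.5 CPM against 109 and 144 CPM (0.43 ± 0.21). Glb1, the beta-galactosidase, had 27.0 and 22.2 CPM against 28.5 and 35.6 CPM (0.38 ± 0.20). Its exons overlap those of Tmppe on the same strand. Asah1, the acid ceramidase, had 50.6 and 43.5 CPM against 52.8 and 59.4 CPM (0.25 ± 0.16). Neu1, the sialidase, had 34.6 and 36.4 CPM against 37.8 and 46.0 CPM (0.24 ± 0.16). Arsa, the sulfatase of sulfatides, had 27.4 and 26.9 CPM against 30.97 and 28.6 CPM (0.14 ± 0.14). In each of these 5 genes the nearest values of the 2 groups were less far apart than the 2 anti-PD-L1 libraries.

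The last 4 hydrolases overlapped between groups. Gaa, the glucosidase that breaks down glycogen, had 258 and 259 CPM under IgG and 246 and 271 CPM under anti-PD-L1, and its log2 fold change was −0.0025 ± 0.20. Gla, the alpha-galactosidase, had 13.7 CPM in both controls and 12.8 and 17.3 CPM under anti-PD-L1. Naglu, which degrades heparan sulfate, had 58.6 and 55.0 CPM against 45.4 and 83.9 CPM, and Tpp1, a tripeptidyl peptidase, had 102 and 90.3 CPM against 86.6 and 111 CPM. In each of these genes anti-PD-L1 replicate 1 was the lowest library and anti-PD-L1 replicate 2 the highest. Their log2 fold changes were 0.13 for Gla, 0.19 for Naglu and 0.04 for Tpp1, all smaller than their standard errors.

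Both soluble cofactors were higher after anti-PD-L1 with no overlap, against 16.5% of all genes, with a class median of 0.63. Npc2 (chr12:84754562-84773152), which binds cholesterol freed in the lumen and hands it to the membrane transporter NPC1, had 419 and 355 CPM under IgG and 657 and 625 CPM under anti-PD-L1. The anti-PD-L1 libraries lay close together and well above both controls. Its log2 fold change was 0.73 ± 0.25 (edgeR adjusted p = 0.734; DESeq2 adjusted p = 0.0224), and 0.61 to 0.83 when single libraries were left out. Psap (chr10:60277627-60302597) encodes prosaposin, the precursor of the saposins that present sphingolipids to their hydrolases. It had 1490.1 and 1440.0 CPM against 1871 and 2355 CPM (0.53 ± 0.35).

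The vacuolar-type ATPase acidifies the lysosome, and none of its 5 subunits had groups apart. Of all genes, 16.5% were higher and 13.1% lower with no overlap. The class median was 0.05. Among the subunits of the membrane sector, Atp6v0d1 had 91.0 and 74.6 CPM under IgG and 82.4 and 88.8 CPM under anti-PD-L1 (0.05 ± 0.18), and Atp6v0a1 had 83.6 and 67.5 CPM against 64.9 and 70.6 CPM (−0.16 ± 0.18). Among the subunits of the catalytic sector, Atp6v1a had 190.0 and 168 CPM against 140.3 and 229.9 CPM (0.05 ± 0.31). Atp6v1b2 had 96.2 and 94.96 CPM against 88.6 and 109 CPM (0.05 ± 0.18), and Atp6v1h had 54.7 and 48.8 CPM against 50.3 and 65.4 CPM (0.16 ± 0.19). Every pump subunit was higher in IgG replicate 1 than in IgG replicate 2 and higher in anti-PD-L1 replicate 2 than in anti-PD-L1 replicate 1. Exons of Atp6v1h overlap those of Rgs20 on the opposite strand.

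The membrane proteins had a class median of 0.04. Lamp1, the most abundant glycoprotein of the lysosomal membrane, had 620.5 and 584 CPM under IgG and 633 and 650.5 CPM under anti-PD-L1 (0.09 ± 0.25). It was the only one of the 5 (20%) with groups that did not overlap, near the 16.5% of all genes. With plain library-size scaling its groups overlapped. Its exons overlap those of Grtp1. Lamp2, which also serves in autophagy, had 193 and 166 CPM against 158 and 238 CPM (0.14 ± 0.28). Scarb2, the receptor that carries glucocerebrosidase to the lysosome, had 172 and 162 CPM against 142 and 201 CPM (0.04 ± 0.25). In Lamp2 and Scarb2 both IgG values lay between the anti-PD-L1 values. Npc1, the cholesterol transporter, had 69.6 and 66.6 CPM against 65.9 and 73.2 CPM (0.03 ± 0.15). Mcoln1, a calcium channel that takes part in TFEB activation, had 27.9 and 26.6 CPM against 26.8 and 24.7 CPM (−0.08 ± 0.15), and both anti-PD-L1 values were below both IgG values under RLE, upper-quartile and library-size scaling.

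**Figure D3:**
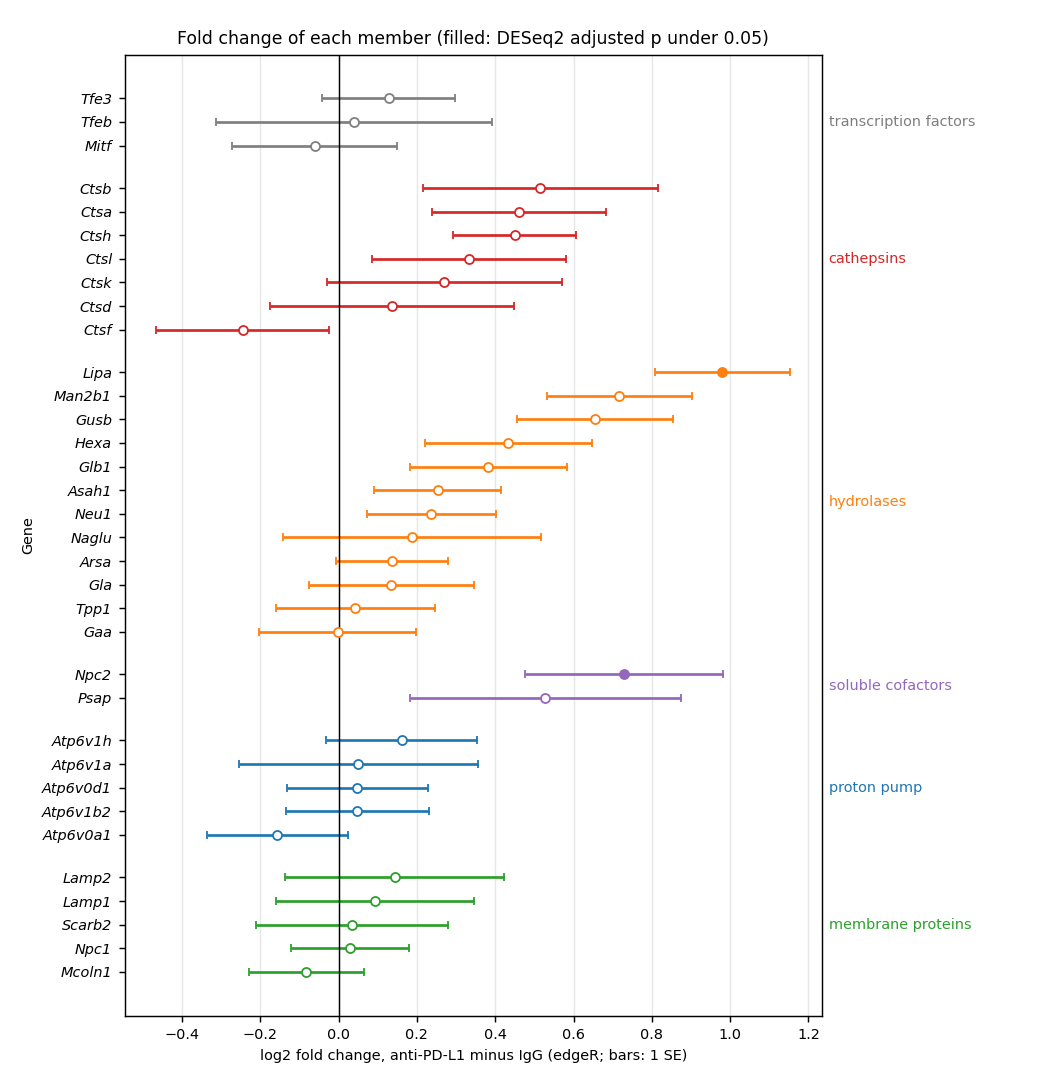
Log2 fold change (anti-PD-L1 minus IgG) of the 34 lysosomal genes by class, with bars of 1 standard error from the edgeR fit on 2 libraries per group and filled points for the 2 genes that DESeq2 called. Lipa is the largest at 0.98, and 20 of the 34 genes have a fold change smaller than their standard error.

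Set out by place in the organelle, a grouping chosen after the values were seen, the genes of the lumen (cathepsins, hydrolases and cofactors) made up 14 of the 15 genes higher with no overlap. Among these 21 genes the median log2 fold change was 0.33 and 14 (66.7%) were higher with no overlap, against 16.5% of all genes. Among the other 13 genes the median was 0.05 and 1 (7.69%, Lamp1) was higher with no overlap. The median of the lumen genes stayed at 0.20 to 0.49 when single libraries were left out, and that of the other 13 genes at −0.06 to 0.11. Without anti-PD-L1 replicate 2, 15 of the 21 lumen genes were higher and 5 lower, while 2 of the other 13 were higher and 8 lower; of all genes 38.1% were then higher and 38.8% lower. The difference between the 2 sets was not tested. The further lists below repeat it only in part. There 90% of cathepsins and proteases and 75% of cofactors were higher with no overlap. The further hydrolases (28.6%) were not above the further pump subunits (35.3%) or membrane proteins (34.6%).

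Much of the variation among the 34 genes ran between the mice of 1 group. In anti-PD-L1 replicate 2, 29 of the 34 genes (85.3%) were higher than in anti-PD-L1 replicate 1, against 49.3% of all genes, with a median ratio of 1.22 (range 0.526 to 1.85). In IgG replicate 1, 27 of 34 (79.4%) were higher than in IgG replicate 2, against 49.9% of all genes, with a median ratio of 1.08 (range 0.802 to 1.24). All 34 IgG pairs were within 1.25-fold of each other, and 19 of 34 anti-PD-L1 pairs were. The anti-PD-L1 libraries also differed in Xist and Ddx3y, as given above. Anti-PD-L1 replicate 2 was the highest of the 4 libraries in 25 of the 34 genes (73.5%), against 31.5% of all genes. The largest departures within the anti-PD-L1 group were Tfeb, whose ratio of replicate 2 to replicate 1 was 0.526, and Naglu, whose ratio was 1.85.

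**Figure D4:**
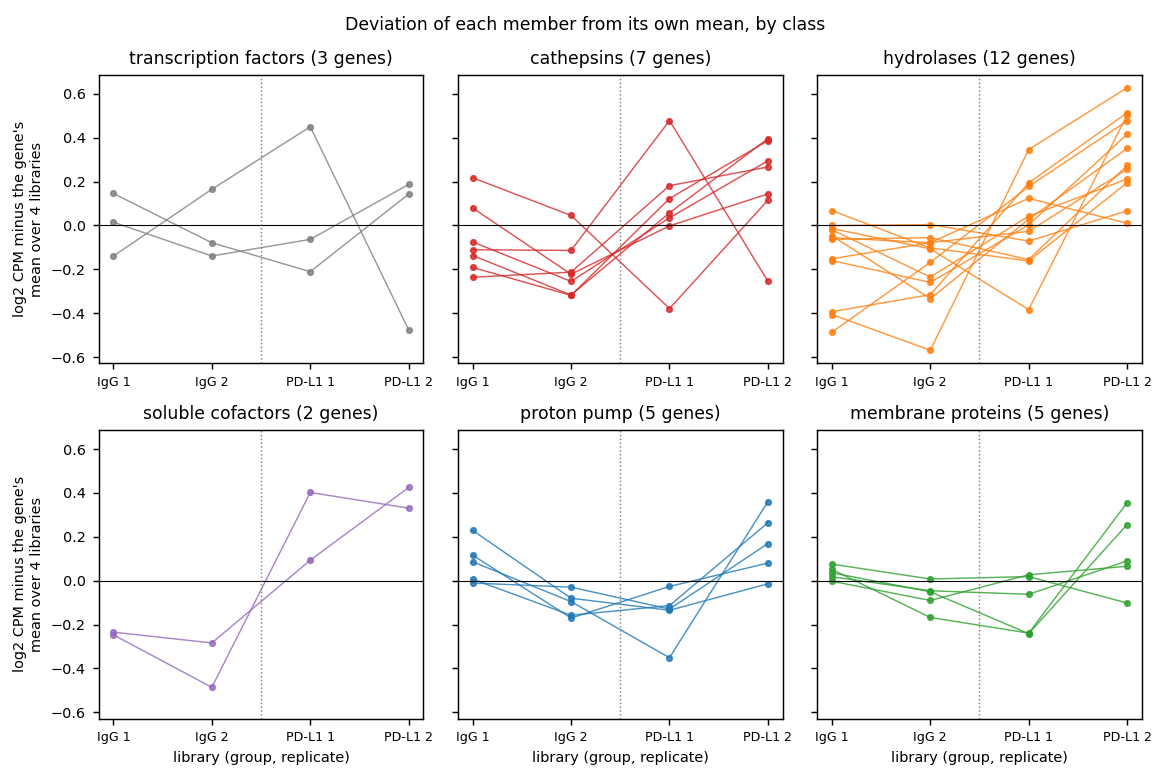
Deviation of log2 CPM from the gene's mean over the 4 libraries (vertical axis) in each library (horizontal axis), 1 panel per class and 1 line per gene, the lines joining the values of a gene and standing for no order. Anti-PD-L1 replicate 2 is the highest of the 4 libraries in 25 of the 34 genes (73.5%, against 31.5% of all genes), and the transcription factor line that drops there is Tfeb.

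Markers of cells rich in lysosomes varied beside these values. All 11 follicular markers were detected in every library, with a median log2 fold change of 0.03 and 0 markers with groups apart. Their order within each group was that of most lysosomal genes. Summed CPM of the follicular markers other than Tg was 3025 and 1815 under IgG and 1467 and 4752 under anti-PD-L1. Of 16 macrophage markers, 10 (62.5%) were higher after anti-PD-L1 with no overlap and 0 lower, against 16.5% and 13.1% of all genes, and the median log2 fold change was 1.17. Their summed CPM was 1243 and 5880 under IgG and 12768 and 3337 under anti-PD-L1, most of it from Lyz2, a lysozyme gene also made outside macrophages. Without Lyz2, left out after its values were seen, the sums were 364 and 397 against 1047 and 921. No macrophage marker was at 0 in any library. C1qa, a complement gene of macrophages, had 55.8 and 76.0 CPM against 316 and 272 CPM. In 6 of the 16 macrophage markers the groups overlapped, and 3 of the 16 had log2 fold changes below 0. The part of macrophages and of follicular cells in the lysosomal values was not tested. In whole thyroid a change in the number of cells of a type and a change in RNA per cell cannot be told apart.

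Levels can be compared between genes only per length. The length used was that of the merged exons of all annotated transcripts (5.438 kb for Npc2, 6.489 kb for Ctsl). It can exceed that of the transcript expressed, so the order is approximate. On the scale of mean CPM per kilobase of merged exons, Psap was the highest of the 34 genes at 652, with 525 to 858 over the 4 libraries. Ctsd followed at 473 (403 to 520.1), Lamp1 at 233 (218 to 243), Ctsb at 163 (129 to 209.8) and Npc2 at 94.5 (65.2 to 121). The ranges of these 5 genes did not overlap with each other. Further down the ranges of most neighbours overlapped, as for Npc2 and Ctsl (51.7 to 75.7) or Ctsl and Hexa (45.3 to 72.4). They did not overlap between Gaa (51.4 to 56.6) and Atp6v0d1 (41.6 to 50.8), Arsa and Npc1, Gla and Mcoln1, or Tfe3 and Mitf. The lowest levels were those of Mitf at 2.09, Tfe3 at 3.05, Mcoln1 at 3.51 and Gla at 4.41, so the span from lowest to highest was 312-fold. Tfeb, at 9.19, ranked 25. Lipa, with the largest fold change, was among the lower genes at 5.41.

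Further genes of the lysosome, from lists also chosen with earlier results known, were measured for 109 of 111 symbols. Their median log2 fold change was 0.16, with 39 (35.8%) higher and 9 (8.26%) lower with no overlap, against 16.5% and 13.1% of all genes. edgeR called 0 of the 109, with 16 higher and 0 lower where the unadjusted p was below 0.05, while 9 higher and 0 lower passed in DESeq2. Of all genes, 4.96% and 1.1% had such an unadjusted p, and 2.93% and 0.327% passed in DESeq2. The cathepsins Ctsw and Ctss had the largest fold changes of the 109. In 10 further cathepsins and proteases the median was 0.81, 9 were higher with no overlap and DESeq2 called 5. Ctss, the cathepsin that processes the invariant chain in antigen-presenting cells, had 30.7 and 49.8 CPM under IgG and 274 and 208 CPM under anti-PD-L1 (2.58 ± 0.34; edgeR adjusted p = 0.178). Ctsw, a cathepsin of cytotoxic lymphocytes, had 0.8004 and 1.60 CPM against 8.85 and 8.50 CPM (log2 fold change 2.85 ± 0.41, with an edgeR adjusted p of 0.200). Ctsc, which activates granule proteases, had 47.9 and 49.5 CPM against 81.7 and 100.1 CPM (0.90 ± 0.17, with an edgeR adjusted p of 0.285). Ctss and Ctsw differed by far more than any of the 7 cathepsins described above. Of 8 T cell markers all were higher with no overlap, and the median log2 fold change was 2.28. Of 6 dendritic cell markers 4 were higher with no overlap and 2 overlapped, with a median of 2.06. The part of these cells in the values was not tested.

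Among 26 further membrane proteins the median was 0.10, with 9 higher (34.6%) and 2 lower (7.69%) with no overlap, against 16.5% and 13.1% of all genes. Cd68, a macrophage-enriched glycoprotein of the LAMP family, had 5.23 and 7.75 CPM against 23.8 and 22.2 CPM (1.82 ± 0.25). Laptm5, a lysosomal protein of blood cells, had 26.1 and 61.1 CPM against 155 and 173 CPM (1.92 ± 0.46), and Slc11a1, the metal transporter of phagocytes, had 8.54 and 10.6 CPM against 23.5 and 19.9 CPM (1.18 ± 0.20). These 3 genes, picked as those of smallest p in their list, had log2 fold changes above that of Lipa. Among 17 further pump subunits the median was 0.11, with 6 higher (35.3%, against 16.5% of all genes) and 0 lower with no overlap. Tcirg1, the pump subunit of osteoclasts and immune cells, had 8.98 and 9.48 CPM against 16.6 and 16.8 CPM (0.86 ± 0.16; DESeq2 adjusted p = 0.0042). It was the pump gene that DESeq2 called. Atp6v0e, a small membrane subunit, had 91.5 and 78.6 CPM against 104 and 102 CPM (0.28 ± 0.17). Atp6v1b1, a subunit of acid-secreting epithelia, had 0.613 and 1.90 CPM against 3.54 and 2.15 CPM (1.18 ± 0.64).

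Further hydrolases, 28 in number, had a median of 0.16, with 8 higher (28.6%) and 2 lower (7.14%) with no overlap, against 16.5% and 13.1% of all genes. Ppt1, which removes fatty acids from proteins, had 90.0 and 78.9 CPM against 118 and 146 CPM (0.65 ± 0.20). Pla2g15, a lysosomal phospholipase, had 31.6 and 31.5 CPM against 45.2 and 51.1 CPM (0.61 ± 0.15). Acp5, an acid phosphatase of osteoclasts and macrophages, had 50.9 and 43.0 CPM against 83.6 and 63.2 CPM (0.64 ± 0.21). Both values of each of these genes were higher in the anti-PD-L1 group. Of 4 further cofactors 3 were higher with no overlap, with a median of 0.44. Progranulin (Grn), a regulator of lysosomal enzymes, had 154 and 122 CPM against 211 and 279.6 CPM (0.83 ± 0.26). The GM2 activator Gm2a had 89.5 and 97.6 CPM against 119 and 170.2 CPM (0.63 ± 0.24), and Sumf1, which activates sulfatases, had 41.4 and 39.6 CPM against 47.2 and 48.9 CPM (0.25 ± 0.14).

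The genes upstream of TFEB and those of enzyme sorting had the lowest median of the 6 further lists. This list of 24 holds the Rag GTPases, the Ragulator subunits, folliculin, mTOR and calcineurin, which control TFEB, and the mannose 6-phosphate receptors and tagging enzymes. Its median log2 fold change was 0.06, with 4 higher (16.7%) and 5 lower (20.8%) with no overlap, near the 16.5% and 13.1% of all genes, and DESeq2 called 0. Tfec, the remaining member of the TFEB family and a gene of macrophages, had 1.43 and 1.27 CPM under IgG and 1.69 and 2.95 CPM under anti-PD-L1 (0.78 ± 0.37). M6pr, the cation-dependent mannose 6-phosphate receptor, had 158 and 148 CPM under IgG and 183 and 206 CPM under anti-PD-L1 (0.34 ± 0.19), and Nagpa, which uncovers the mannose 6-phosphate tag, had 15.9 and 15.5 CPM against 16.9 and 22.4 CPM (0.32 ± 0.20). Tfec, M6pr and Nagpa were the 3 of smallest p in the list, and each had groups that did not overlap.

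**Figure D5:**
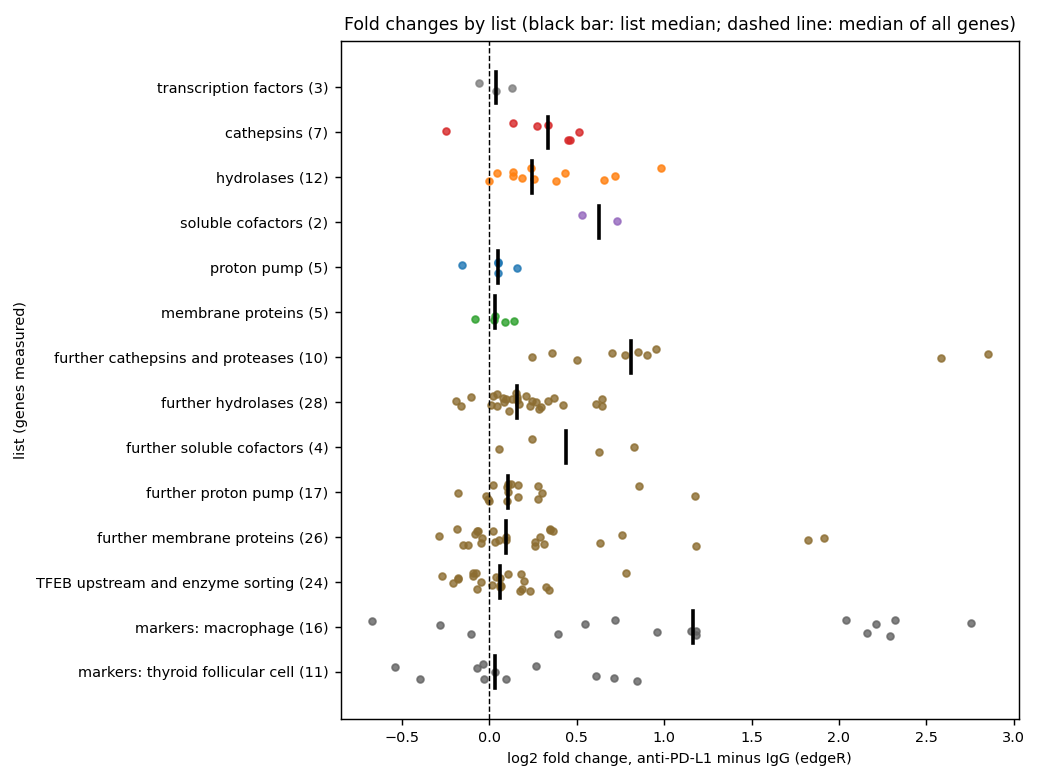
Log2 fold changes (anti-PD-L1 minus IgG) of the lysosomal genes by class, of the further lysosomal lists and of macrophage and follicular cell markers, with 1 point per gene, a black bar at each list's median and a dashed line at the median of all genes. The further cathepsins and proteases have a median of 0.81 and the genes upstream of TFEB and of enzyme sorting one of 0.06, while the macrophage markers stand at 1.17 and the follicular markers at 0.03.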

How the data were processed

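RNA from 4 thyroids was sequenced as poly(A)-selected, paired-end libraries, per the labels' protocols. The values the authors deposited are un-normalized expected counts by gene symbol in 1 table. BWA and mm10 are named in the submitters' processing notes. How reads were counted, with which annotation, strand setting and filter, is not given in the sources used here. Counts were whole except in 3328 genes (20.5%) with a value ending in 0.5, every gene reached 100 counts in some library, and 13 blank cells were read as 0. Low genes are therefore not represented, and how reads shared by genes were assigned is unknown.

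Counts were rounded to whole numbers and tested with edgeR 4.0.16 in R 4.3.3 (filterByExpr, TMM, robust two-sided quasi-likelihood F test with group as the sole factor), the Benjamini-Hochberg adjustment covering 16217 genes, at a threshold of 0.05. The fit had 2 residual degrees of freedom and a median biological coefficient of variation of 24.4%. Standard errors were obtained by dividing the size of the log2 fold change by the root of F. The p-values measure the spread between these mice only. Library depth was 79663374.5 and 77492328 counts for IgG replicates 1 and 2 and 75591923 and 77685257 for anti-PD-L1 replicates 1 and 2, and the floor of 3 counts covers counting error only. Levels per length used merged exons of GENCODE release M21 on GRCm38 (mm10), where 15871 symbols had a single entry. Promoters came from the RefSeq table.

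The 34 genes, the further lists and the marker lists were chosen with earlier results of these data known, so none got a test of its own. All 34 are named, with the 3 genes of smallest p in each further list and, beside a result, up to 3 markers of largest mean CPM in a list. Alternatives were DESeq2 1.42.0, limma 3.58.1 voom, 3 other scalings, no filter and a stricter one (1 CPM in 2 libraries and a mean count of 20), each library left out, the replicate number as a block, and an adjusted p under 0.1. The steps were tested on simulated data.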

Additional observations from a re-analysis of the deposited data

How the results depend on the processing

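With 2 mice per group, edgeR called 0 genes; DESeq2 called 528 genes, 2 of the 34 lysosomal genes and 9 of the 109 further ones, and an adjusted p under 0.1 in edgeR gave 15 genes in all. Leaving out single libraries gave median log2 fold changes of 0.055 to 0.33 for the 34 genes (0.33 without anti-PD-L1 replicate 1), −0.015 to 0.11 for the transcription factors, 0.27 to 0.46 for the cathepsins, 0.17 to 0.45 for the hydrolases, 0.55 to 0.69 for the cofactors, −0.12 to 0.19 for the pump and −0.061 to 0.11 for the membrane proteins. The count higher with no overlap was 15 to 27 and the count lower 1 to 13. Of all genes, 24.8% to 39.2% were higher and 26.6% to 38.8% lower in these 4 fits. RLE, upper-quartile and library-size scaling each gave 1 lower gene, Mcoln1, against at most 14.4% of all genes. The higher counts under these scalings were 15, 15 and 14, against 15.5% to 17.7% of all genes. Filters, tools and the block give no such count.

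Over 12 alternatives the 34 genes gave 408 values, of which 380 kept direction and call, 26 changed sign and 2 (Lipa and Npc2 in DESeq2) newly passed. No gene whose log2 fold change was above 0.27 in size changed sign. Tfeb was −0.023 in voom, and Gaa was 0.021 with library-size scaling. With single libraries left out the log2 fold changes ranged from −0.50 to 0.42 for Tfeb, −0.015 to 0.25 for Tfe3, −0.26 to 0.11 for Mitf, −0.0068 to 0.28 for Ctsd, −0.14 to 0.58 for Ctsk, −0.085 to 0.065 for Gaa, −0.11 to 0.33 for Gla, −0.34 to 0.56 for Naglu, −0.16 to 0.21 for Tpp1, −0.088 to 0.18 for Atp6v0d1, −0.36 to 0.36 for Atp6v1a, −0.12 to 0.19 for Atp6v1b2, −0.052 to 0.34 for Atp6v1h, −0.20 to 0.41 for Lamp2, −0.061 to 0.10 for Npc1 and −0.25 to 0.26 for Scarb2. The cause was not tested.

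The replicate numbers are shared between the groups, but the deviations of same-numbered libraries correlated at only 0.0999 over 16217 genes and nothing in the labels ties them. With the replicate block edgeR called 0 genes, the median of the 34 genes was 0.13, and Tfeb was −0.026.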

Other observations

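Promoters were also searched on both strands for 2 motifs known from cytokine signalling, TTCNNNGAA, the letters bound by STAT factors, and GAAANNGAA, letters bound by interferon regulatory factors. The first was in the promoter of 1 of the 28 lysosomal genes with a promoter (3.57%, Arsa), against 8.30% of all promoters and 9.55% of all genes. The second was in 1 of 28 (3.57%, Lamp1), against 8.56% and 9.76%. Arsa and Lamp1 also held the TFEB-type motif, and their log2 fold changes were 0.14 and 0.09. With only the 250 bases before the start searched, the TFEB-type motif was in 10 of the 28 genes (35.7%) and CACGTG in 12 (42.9%). In that window the TFEB-type motif was in 3.58% of all genes and 5.32% of tested genes with a promoter. CACGTG was in 6.86% and 9.33%.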
